A study of Rattus norvegicus with 35 samples.

Results

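Acyl-CoA thioesterases of rat liver were followed through 6 dose groups of a brominated flame retardant. The family taken up here had 7 genes (Acot1, Acot2, Acot3, Acot4, Acot7, Acot8 and Acot12) of the 14217 genes that the array named by a single symbol, and they were measured by 10 of the 31042 probe sets tested. A probe set is a group of short probes on an Affymetrix array that together report 1 transcript. Where a gene had several, the probe set with the highest mean over all arrays was taken as its main one: for Acot2 that mean was 9.23, against 7.70 and 6.77 for its other probe sets, and for Acot7 it was 8.40, against 4.61. The family was chosen by measured values of these arrays, the higher Acot1 and Acot2 and the spread of Acot1 at 550 mg/kg, so those values are given as a description, and the p-values beside them are no independent evidence.

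The livers came from male Sprague Dawley rats that were 7 weeks old at the start. They were gavaged with TBB (2-ethylhexyl-2,3,4,5-tetrabromobenzoate), a flame retardant, on 5 consecutive days, and the left liver lobe was taken 1 day after the last dose. All groups shared the corn oil vehicle at 5 ml/kg, the diet and the strain. The groups were vehicle (n = 5 arrays) and 0.05, 0.55, 5.50, 55 and 550 mg/kg (n = 6 arrays each), 35 arrays in all. The labels do not say that the arrays of a group came from separate rats, so the p-values measure the spread between these arrays. Every dose was compared with the same 5 vehicle arrays.

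Acyl-CoA thioesterases split an activated fatty acid, the acyl-CoA, into the free fatty acid and coenzyme A. In this way they set how much acyl-CoA and how much free coenzyme A each compartment of the cell holds, alongside the synthetases that make acyl-CoA and the oxidation pathways that use it. In rodent liver several of them, Acot1 foremost, are known targets of the fatty acid receptor PPARalpha and are induced by fasting and by peroxisome proliferators.

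Acot2, Acot1, Acot4 and Acot3 lie in this order on rat chromosome 6 in the RefSeq annotation of GRCr8, with Rpl23al8 between Acot1 and Acot4 and with Acot5 and Acot6 after Acot3. Acot12 lies on chromosome 2, Acot8 on chromosome 3 and Acot7 on chromosome 5. All 7 genes matched the RefSeq promoter table of GRCr8, with 8 windows of 300 bases (250 before and 50 after the annotated gene start), since Acot7 has a pair of starts. The windows were searched on both strands for AGGTCANAGGTCA, the direct repeat to which PPARalpha binds together with its partner RXR. The 250 bases before the starts of Acot1 and Acot2, the genes that were higher at 550 mg/kg, are shown in full. For Acot4, Acot8 and Acot12, which hold the closest matches, the match is shown with up to 20 bases on each side. Capitals mark the best match of 13 letters in each.

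Acot1 (GRCr8, chr6:109367024-109367273, plus strand): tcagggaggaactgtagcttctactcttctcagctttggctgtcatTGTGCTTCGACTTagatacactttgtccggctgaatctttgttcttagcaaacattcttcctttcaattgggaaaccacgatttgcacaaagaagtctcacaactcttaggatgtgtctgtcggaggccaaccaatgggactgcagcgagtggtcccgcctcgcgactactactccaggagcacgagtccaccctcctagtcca
Acot2 (GRCr8, chr6:109342590-109342839, plus strand): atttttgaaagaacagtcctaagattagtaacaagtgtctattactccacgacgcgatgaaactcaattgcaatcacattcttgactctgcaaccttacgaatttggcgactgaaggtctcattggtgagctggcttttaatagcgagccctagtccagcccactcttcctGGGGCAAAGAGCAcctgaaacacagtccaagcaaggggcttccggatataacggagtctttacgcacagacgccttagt
Acot4 (GRCr8, chr6:109399821-109399853, plus strand): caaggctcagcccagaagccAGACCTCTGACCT
Acot8 (GRCr8, chr3:173962189-173962230, minus strand): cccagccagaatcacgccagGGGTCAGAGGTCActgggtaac
Acot12 (GRCr8, chr2:24721834-24721886, plus strand): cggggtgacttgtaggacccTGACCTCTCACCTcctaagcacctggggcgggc

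The best match reached 11 of the 12 fixed letters of the motif in Acot4, Acot8 and Acot12, starting 13, 22 and 105 bases before the gene start. Of 33469 RefSeq promoter windows of this length, 0.439% held a match of 11 or more letters. In Acot1, Acot2, Acot3 and both Acot7 windows the best match reached 8 letters, and 24.9% of all windows reached 9 or more. The half-site AGGTCA, which any full match contains, was found 1 time each in Acot4, Acot8 and Acot12 and not in the windows of Acot1, Acot2, Acot3 or Acot7, against 16.2% of all windows with at least 1. The closest matches thus stood in windows of genes that were not among those called at 550 mg/kg below. These letters describe the windows alone and not the binding of any factor.

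The arrays were alike as a set: their pairwise correlations ran from 0.988 to 0.996, and no pair held identical values. Values are log2 RMA values per probe set as deposited, so a step of 1 is a 2-fold step, and levels of different probe sets cannot be set against each other. Differences were fitted with limma over all 35 arrays, are dose minus vehicle unless stated otherwise, and were called at a Benjamini-Hochberg adjusted p under 0.05 over all 31042 probe sets. The median 95% half-width of a difference between 550 mg/kg and vehicle was 0.17. Of the 10 hepatocyte markers listed 9 were measured, and all 9 stood at percentile 97.9 or above in the vehicle arrays (Asgr1, an asialoglycoprotein receptor subunit, was the lowest).

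Acot1, the cytosolic thioesterase of long-chain acyl-CoAs, was near the bottom of the array's range in vehicle livers and far above that at 550 mg/kg. Its probe set 1398250_at read 5.27, 7.18, 4.38, 4.53, 8.15 and 7.86 in the 550 mg/kg livers (replicates 1 to 6), against 3.11, 3.03, 2.79, 2.88 and 3.53 in the vehicle livers (replicates 1 to 5). The groups did not overlap, and the lowest 550 mg/kg array stood above every array of the other groups, of which the highest, a 55 mg/kg array, read 4.01. The means were 6.23 ± 1.70 at 550 mg/kg (SD, n = 6) and 3.07 ± 0.29 in vehicle (SD, n = 5), a difference of 3.16 ± 0.43 (SE; 95% interval 2.28 to 4.05; adjusted p = 5.5e-05 in limma). This is an 8.95-fold higher RMA value. The vehicle mean lay at percentile 12.6 of all probe sets, where RMA values level off, so the size of the fold depends on that floor. The SE and interval use the spread of Acot1 pooled over all 6 groups, whose SDs below 550 mg/kg ran from 0.12 to 0.48. They are therefore too narrow for the 550 mg/kg arrays, whose SD was 1.70. In a limma fit to the 550 mg/kg and vehicle arrays alone, the difference of 3.16 had an adjusted p of 0.083, which ends the call. That fit still pools the spread with the quieter vehicle arrays (SD 0.29), and it uses fewer arrays.

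Below 550 mg/kg no step of Acot1 was called. Its lowest, median and highest values were 2.84, 3.46 and 3.89 at 0.05 mg/kg, 2.75, 2.92 and 3.06 at 0.55 mg/kg, 2.61, 3.05 and 3.33 at 5.50 mg/kg, and 2.71, 3.09 and 4.01 at 55 mg/kg. By mean the groups ranked 550 mg/kg (6.23), 0.05 mg/kg (3.37), 55 mg/kg (3.23), vehicle (3.07), 5.50 mg/kg (3.01) and 0.55 mg/kg (2.91). Each of these low doses overlapped the vehicle arrays, and no neighbours below 550 mg/kg in that order were separated. Because the pooled spread of Acot1 is set largely by the 550 mg/kg arrays, the low doses were also fitted without them. The 95% interval of the fold over vehicle was then 0.935 to 1.62 at 0.05 mg/kg, 0.681 to 1.18 at 0.55 mg/kg, 0.733 to 1.27 at 5.50 mg/kg and 0.85 to 1.47 at 55 mg/kg.

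**Figure D1:**
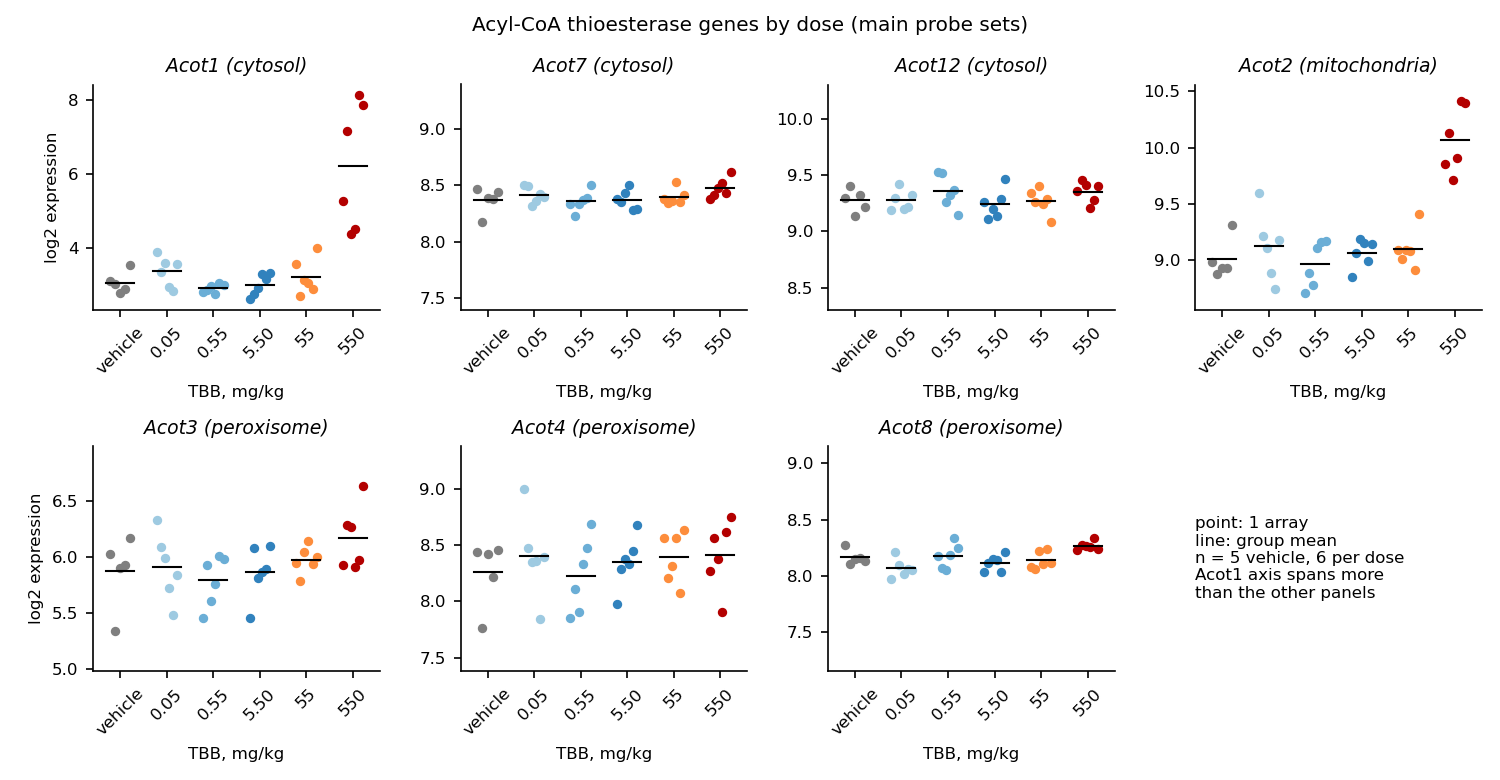
Log2 expression of the main probe set of each thioesterase gene (vertical axis, with a wider range for Acot1) by dose of TBB in mg/kg (horizontal axis). Points are arrays and lines are group means, with 5 vehicle arrays and 6 arrays per dose; Acot1 and Acot2 stand apart from vehicle at 550 mg/kg, where Acot1 runs from 4.38 to 8.15.

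The other cytosolic members overlapped vehicle and were not called. Acot7, which prefers long-chain acyl-CoAs and is best known from brain, read 8.38, 8.41, 8.48, 8.52, 8.43 and 8.62 at 550 mg/kg, against 8.47, 8.17, 8.39, 8.38 and 8.44 in vehicle, with overlapping groups. Its difference was 0.10 ± 0.06 (SE; adjusted p = 0.65). Its second probe set, 1388075_at, gave −0.06 ± 0.07 (adjusted p = 0.88), so the 2 probe sets of Acot7 differed in sign and neither was called. Acot12, the liver enzyme that splits acetyl-CoA in the cytosol, read between 9.21 and 9.46 at 550 mg/kg (median 9.38) and between 9.14 and 9.40 in vehicle (median 9.30), again overlapping. The difference of Acot12 was 0.08 ± 0.07 (95% interval −0.065 to 0.22; adjusted p = 0.83), which limits any change in its RMA value to between 0.956-fold and 1.17-fold.

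Acot2, the mitochondrial matrix counterpart of Acot1, had higher values at 550 mg/kg. In vehicle livers its main probe set, chosen as the brightest, lay at percentile 90.6 of all probe sets, and its other probe sets lay at 78.4 and 69.1. Its main probe set 1391433_at read 9.85, 10.13, 9.71, 9.91, 10.41 and 10.40 at 550 mg/kg, against 8.98, 8.88, 8.93, 8.93 and 9.31 in vehicle. The groups did not overlap. The means were 10.07 ± 0.30 at 550 mg/kg (SD, n = 6) and 9.0 ± 0.17 in vehicle (SD, n = 5), a difference of 1.06 ± 0.13 (SE; 95% interval 0.80 to 1.32; 2.09-fold; adjusted p = 7e-06). Unlike that of Acot1, this difference kept its call in a fit to the 2 groups alone (adjusted p = 0.0042).

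The other Acot2 probe sets gave similar sizes. For 1384115_at the 550 mg/kg arrays ran from 8.11 to 8.85 and the vehicle arrays from 7.23 to 7.70, and for 1388210_at from 7.31 to 8.19 at 550 mg/kg and from 6.44 to 6.95 in vehicle. Their differences were 0.96 (adjusted p = 9.4e-05) and 1.13 (adjusted p = 0.00012). A further probe set, 1388211_s_at, is annotated to Acot1 and Acot2 together and was not counted for either gene. It read 7.57, 8.10, 7.29, 7.38, 8.43 and 8.33 at 550 mg/kg, against 6.57, 6.42, 6.42, 6.49 and 6.85 in vehicle, a difference of 1.30 ± 0.18 (2.46-fold; adjusted p = 3.8e-05). Its change lay between those of the Acot2 and Acot1 probe sets. Whether the Acot1 probes also bind Acot2 RNA was not tested, since probe sequences were not used here.

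At the lower doses Acot2 overlapped vehicle throughout. Its means were 9.12 at 0.05 mg/kg, 8.97 at 0.55 mg/kg, 9.06 at 5.50 mg/kg and 9.10 at 55 mg/kg, beside 9.0 in vehicle. The interval at 55 mg/kg, −0.17 to 0.35, includes 0 and does not reach the size seen at 550 mg/kg.

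**Figure D2:**
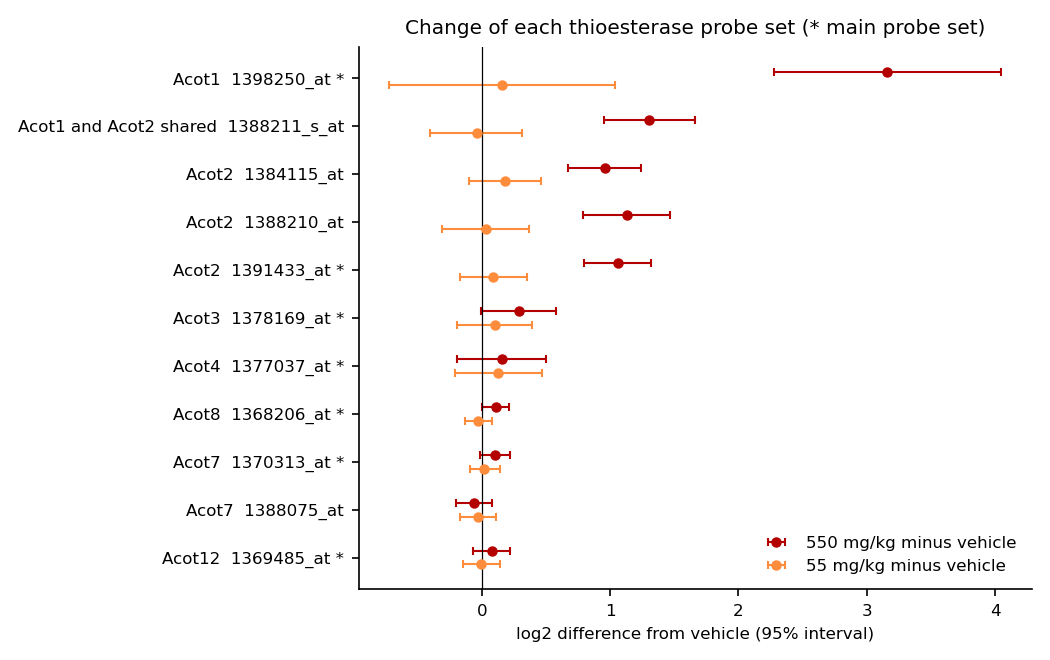
Log2 difference from vehicle (horizontal axis) with its 95% interval for every thioesterase probe set (rows), at 550 mg/kg (red) and at 55 mg/kg (orange); asterisks mark the main probe sets. The intervals of the Acot1, Acot2 and shared probe sets at 550 mg/kg lie above 0, from 0.67 at the lowest bound to 4.05 at the highest, and all intervals at 55 mg/kg include 0. Each interval pools the spread over all groups, which makes that of Acot1 at 550 mg/kg too narrow for the arrays of that dose.

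None of the 3 peroxisomal members was called at 550 mg/kg. Acot4, which in mouse hydrolyses succinyl-CoA and other dicarboxylyl-CoAs, lies between Acot1 and Acot3 on chromosome 6. It read 8.27, 8.56, 8.38, 7.91, 8.62 and 8.75 at 550 mg/kg, against 8.44, 7.76, 8.42, 8.22 and 8.46 in vehicle, and the groups overlapped over most of their range. Its difference was 0.16 ± 0.17 (SE; 95% interval −0.19 to 0.50; adjusted p = 0.87), so changes between 0.879-fold and 1.41-fold lay inside the interval.

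Acot3, in mouse a peroxisomal thioesterase of medium-chain and long-chain acyl-CoAs, read 5.93, 6.28, 6.27, 5.91, 5.97 and 6.63 at 550 mg/kg, against 6.03, 5.34, 5.90, 5.93 and 6.17 in vehicle. Of its 6 arrays at 550 mg/kg, 3 were above the highest vehicle array and the others lay inside the vehicle range. The difference was 0.29 ± 0.14 (SE; adjusted p = 0.58), and its 95% interval of −0.0027 to 0.58 just included 0.

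Acot8, the peroxisomal enzyme with the broadest range of substrates, bile acid CoA esters among them, varied least of the 7 main probe sets within 550 mg/kg. Its arrays read 8.23, 8.28, 8.27, 8.26, 8.34 and 8.24 at 550 mg/kg, against 8.28, 8.11, 8.15, 8.16 and 8.13 in vehicle. Apart from the first vehicle array the groups would not overlap, but the difference was 0.11 ± 0.05 (SE; 1.08-fold), with an unadjusted p of 0.05 and an adjusted p of 0.58. Its SD within 550 mg/kg, 0.04, was among the smallest on the array (rank 30617 of 31042).

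At the lower doses these 5 members overlapped vehicle as well. The means of Acot7 were 8.37 in vehicle, 8.42 at 0.05 mg/kg, 8.36 at 0.55 mg/kg, 8.37 at 5.50 mg/kg and 8.39 at 55 mg/kg, and those of Acot12 in the same order were 9.28, 9.28, 9.36, 9.24 and 9.27. Acot8 was at 8.16, 8.07, 8.18, 8.12 and 8.14, with its largest shift from vehicle at 0.05 mg/kg (−0.10 ± 0.05 SE; adjusted p = 0.85). Acot7 and Acot12 thus were not called at any dose, and Acot8 lay slightly below vehicle at the lowest dose without passing the test. Acot3 averaged 5.87, 5.91, 5.79, 5.87 and 5.98, and Acot4 averaged 8.26, 8.40, 8.23, 8.35 and 8.39, with no order by dose in either. Acot4 was the more variable from array to array: at 0.05 mg/kg alone it ran from 7.84 to 9.0, and its SDs within groups ran from 0.23 to 0.37, against 0.04 to 0.11 for Acot8.

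By compartment, then, 1 of 3 cytosolic genes (Acot1), the mitochondrial gene (Acot2) and 0 of 3 peroxisomal genes were called at 550 mg/kg, and no compartment was tested as such. That makes 2 of 7 genes, or 4 of 10 probe sets, called higher and 0 lower, where 0.354% of all probe sets were called higher and 0.499% in either direction (limma; 3 of the 7 genes had an unadjusted p under 0.05). The same 2 genes and 4 probe sets had no overlap between 550 mg/kg and vehicle, against 0.796% of all probe sets with every 550 mg/kg array above every vehicle array. Since the family was taken up with this contrast known, these shares are given without further reading. In each comparison of 0.05, 0.55, 5.50 and 55 mg/kg with vehicle 0 of 7 genes were called by limma and 0 had an unadjusted p under 0.05. Over all probe sets, 0% were called at the lowest 3 doses and 0.00644% at 55 mg/kg.

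Differences between members within an array were taken as well. Those with Acot1 or Acot2 reuse the values by which the family was chosen, so they are given as a description. A log2 difference between probe sets carries an arbitrary offset, which drops out of its change between groups. That change still depends on how far each probe set follows its RNA. Acot1 minus Acot2 ran from −5.38 to −2.26 in the 550 mg/kg arrays and from −6.14 to −5.78 in the vehicle arrays, with no overlap. In RMA value Acot1 thus stood higher relative to Acot2 in each 550 mg/kg array than in every vehicle array. Acot2 minus Acot4 ran from 1.33 to 1.99 at 550 mg/kg and from 0.51 to 1.12 in vehicle, again apart. Acot2 minus Acot3 ran from 3.44 to 4.44 at 550 mg/kg and from 2.95 to 3.54 in vehicle, and Acot4 minus Acot3 from 2.01 to 2.65 at 550 mg/kg and from 2.29 to 2.52 in vehicle. The groups overlapped in both of these last differences. The share of all pairs of probe sets without overlap was not counted.

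Set against 55 mg/kg in place of vehicle, the step had nearly the same size. Acot1 was higher at 550 mg/kg by 3.00 ± 0.41 (SE; adjusted p = 6e-05) and Acot2 by 0.97 ± 0.12 (adjusted p = 1.6e-05). Again 2 of 7 genes and 4 of 10 probe sets were called higher and had no overlap, against 0.577% of all probe sets called higher, 0.686% called in either direction and 0.825% without overlap on the higher side. The SE of Acot1 again pools the quieter groups, and in a fit to these 2 groups alone the adjusted p of Acot1 was 0.055. Acot8 had the next smallest p, with a difference of 0.13 (95% interval 0.033 to 0.24; adjusted p = 0.31).

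A straight line over dose rank (vehicle as 0, 550 mg/kg as 5) called 1 member. By limma, Acot2 had a fitted slope of 0.16 per rank (adjusted p = 0.03) and Acot1 of 0.46 ± 0.11 (SE, adjusted p = 0.067). No other member was called. Thus 1 of 7 genes and 2 of 10 probe sets passed. Of all probe sets 0.0966% were called with a rising slope and 0.0741% with a falling one. The mean of Acot2 did not climb rank by rank: in order of dose it was 9.0, 9.12, 8.97, 9.06, 9.10 and 10.07. Its slope thus carries mainly the step at 550 mg/kg, by which the family was chosen. By limma 4 of the 7 genes had an unadjusted p under 0.05; of those not called, Acot3 and Acot8 had slopes of 0.05 and 0.02 (adjusted p = 0.49 each). The call of Acot2 rested on the full set of 550 mg/kg arrays: without any 1 of those 6 its slope ran from 0.13 to 0.15 and was not called.

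Within 550 mg/kg, Acot1 varied more than nearly every other probe set. Its SD of 1.70 ranked 9 of 31042, where the median SD was 0.12; in the other groups it was 0.29 in vehicle, 0.41 at 0.05 mg/kg, 0.12 at 0.55 mg/kg, 0.30 at 5.50 mg/kg and 0.48 at 55 mg/kg. Relative to the vehicle mean the single 550 mg/kg arrays stood 4.60-, 17.3-, 2.48-, 2.76-, 33.9- and 27.8-fold higher in RMA value (replicates 1 to 6), folds whose size depends on the floor near which the vehicle arrays lay. The values lay in separate sets, at 4.38, 4.53 and 5.27 and at 7.18, 7.86 and 8.15, so no correlation over these 6 arrays is given. With Acot1 in ascending order (replicates 3, 4, 1, 2, 6 and 5), Acot2 read 9.71, 9.91, 9.85, 10.13, 10.40 and 10.41. Acot2 was thus lowest and highest in the same arrays as Acot1, with replicates 4 and 1 exchanged, over a range of 0.71 where Acot1 spanned 3.77. In the same order Acot4 read 8.38, 7.91, 8.27, 8.56, 8.75 and 8.62 and Acot3 read 6.27, 5.91, 5.93, 6.28, 6.63 and 5.97. The 3 arrays with the highest Acot1 also had the highest Acot4, while Acot3 was low in replicate 5, where Acot1 peaked. The SDs of Acot2, Acot3 and Acot4 within 550 mg/kg were 0.30, 0.28 and 0.30, and those of Acot7 and Acot12 were 0.09 each.

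Genes outside the family did not share 1 order over these arrays. Ehhadh, the peroxisomal bifunctional enzyme of fatty acid oxidation and a PPARalpha target, read 11.70, 11.68, 11.90, 12.19, 11.92 and 11.75 in ascending order of Acot1, and was not highest where Acot1 was. Cyp4a1, the fatty acid hydroxylase used as a PPARalpha marker, read 11.78, 12.12, 12.41, 12.35, 12.38 and 12.51, with its lowest and highest values in the same arrays as those of Acot1. Vnn1, the pantetheinase that recycles the vitamin part of coenzyme A, read 10.03, 9.94, 10.17, 10.35, 10.52 and 10.40. Pdk4, the kinase that shuts off pyruvate dehydrogenase in fasting, read 10.08, 9.77, 9.43, 8.91, 8.47 and 8.81, highest where Acot1 was lowest and lowest in the second highest array. Cyp1a1, the marker gene of the aryl hydrocarbon receptor (7.34 ± 0.24 SE above vehicle at 550 mg/kg), read 11.70, 12.01, 12.32, 11.49, 12.20 and 11.46, so the array with the highest Acot1 had the lowest Cyp1a1 of the group.

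**Figure D3:**
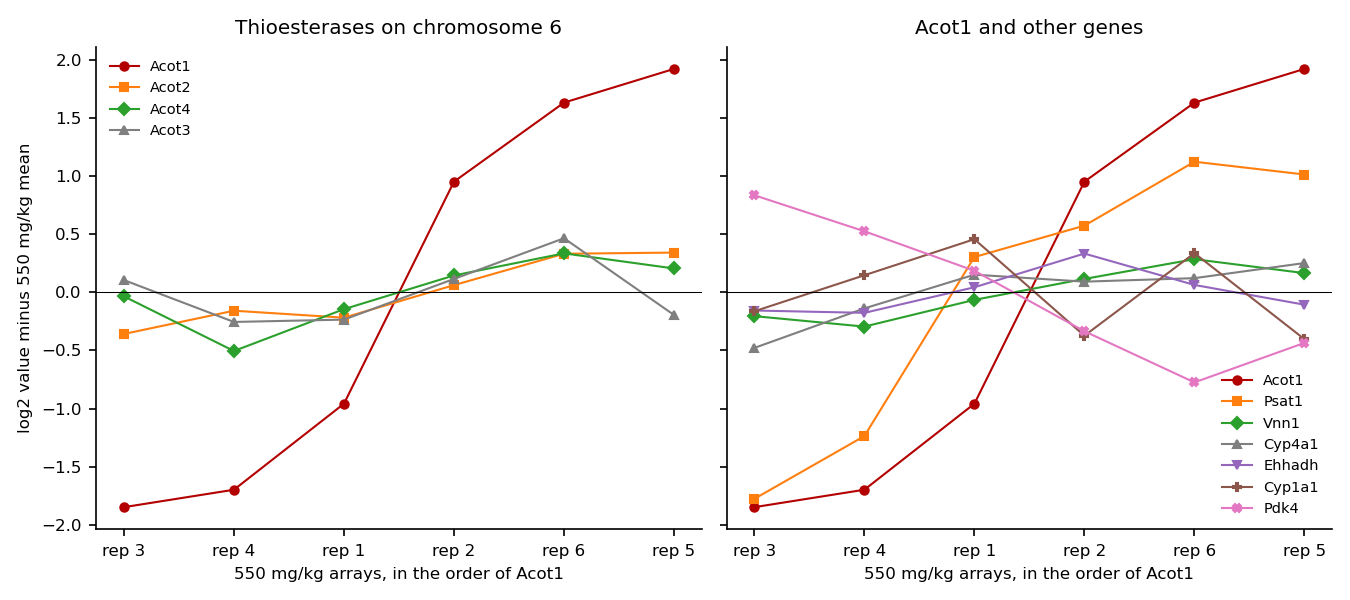
Log2 value minus the 550 mg/kg mean (vertical axis) in the 6 arrays at 550 mg/kg, placed in ascending order of Acot1 (horizontal axis), for thioesterases of chromosome 6 (left) and for Acot1 beside other genes (right); lines join the values of 1 gene and stand for no order in time. Acot1 spans 3.77, Acot2 spans 0.71, and Pdk4 is highest, at 10.08, in the array with the lowest Acot1.

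Below 550 mg/kg, where no thioesterase was called against vehicle, Acot1 still varied with the other chromosome 6 members from array to array. In these groups Acot1 lay near the floor of RMA values (percentile 12.6 in vehicle). Over the 29 arrays of vehicle and the 4 lower doses, with each group's mean subtracted, Acot1 correlated with Acot2 at r = 0.75 (Spearman's rho 0.68), with Acot4 at r = 0.61 (rho 0.63) and with Acot3 at r = 0.51 (rho 0.50). In permutation tests of 100000 resamples within groups, two-sided and adjusted over 11 partner genes, the p-values of r were 0.00011, 0.0025 and 0.013, and the unadjusted p for Acot2, 1e-05, is the smallest the resamples can give. Without the 2 arrays farthest from the median of Acot1 (55 mg/kg replicate 6 and 0.05 mg/kg replicate 1) r was 0.65 with Acot2, 0.54 with Acot4 and 0.50 with Acot3. Among all 14216 other genes, Acot2 ranked 1, Acot4 ranked 23 and Acot3 ranked 136 by r with Acot1. Next after Acot2 came genes outside the family, Brk1 (0.71), Pithd1 (0.71) and Mrps6 (0.70), so an r of this size was not particular to the chromosome 6 members. No relation passed the test for the members on other chromosomes: r was 0.18 for Acot7, 0.03 for Acot8 and −0.04 for Acot12 (adjusted permutation p of 0.67 or more for each). These members varied little, with SDs within the lower groups from 0.07 to 0.15, where the median over all probe sets was 0.13 to 0.14. The part of this small variation in their low r was not tested.

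Of the 5 partners outside the family, 4 passed no test against Acot1 in these lower groups. Ehhadh had r = 0.14, Cyp4a1 and Pdk4 had r = 0.13 each and Cyp1a1 had r = 0.19, with adjusted permutation p-values of 0.67 or more. Vnn1 had r = 0.59 (adjusted permutation p = 0.007), and without the 2 farthest arrays 0.46 (adjusted permutation p = 0.061), so that relation rests in part on those 2 arrays. The labels name no batch, so no value within batches can be given, and the part that shared handling of arrays or overlap of probes between Acot1 and Acot2 may have in these correlations was not tested. The sample used for them, the 29 lower arrays, was settled after the 550 mg/kg values were seen.

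**Figure D4:**
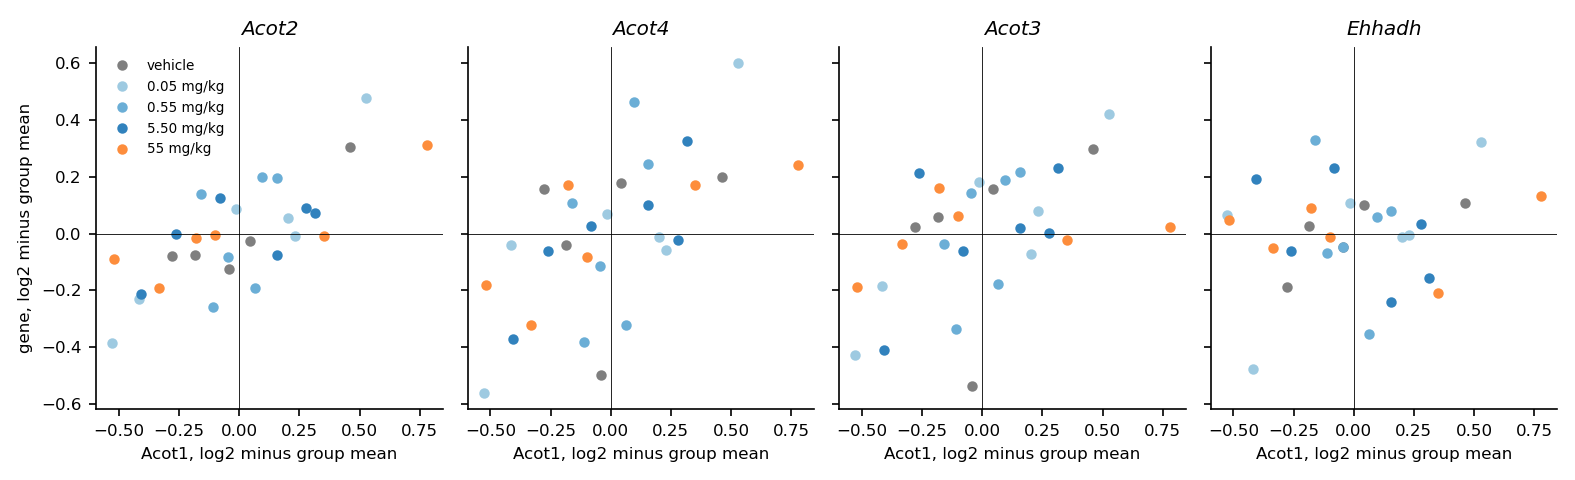
Acot1 (horizontal axis) against Acot2, Acot4, Acot3 and Ehhadh (vertical axes) in the 29 arrays below 550 mg/kg, all as log2 value minus the group mean; each point is an array, coloured by group. Points rise together for Acot2 (r = 0.75), Acot4 (r = 0.61) and Acot3 (r = 0.51), and less for Ehhadh (r = 0.14).

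Over all 35 arrays the gene most like Acot1 was also Acot2 (r = 0.93). The next were Eci1, a mitochondrial enoyl-CoA isomerase (0.87), Pttg1, the securin of the cell cycle (0.85), the proliferation marker Mki67 (0.83), the histone variant gene H2az1 (0.83), Nqo1, a quinone reductase (0.83), Ech1, a dienoyl-CoA isomerase (0.82), Ehhadh (0.81) and Bub1, a mitotic checkpoint kinase (0.81). These values are descriptions and rest largely on the step at 550 mg/kg. With group means subtracted, Acot2 stayed first (0.74), followed by Eif2s2, a subunit of a translation initiation factor (0.71), Psat1, an enzyme of serine synthesis (0.70), Pttg1 (0.67), Cpt2, the inner carnitine palmitoyltransferase (0.67), Marchf10 (0.66) and Ech1 (0.65). The wide spread of Acot1 at 550 mg/kg weighs heavily here. Psat1, for example, read 6.27, 6.81, 8.35, 8.62, 9.17 and 9.06 at 550 mg/kg in ascending order of Acot1, against 7.67 to 9.11 in vehicle, and was not called between the groups (−0.34 ± 0.36 SE; adjusted p = 0.86).

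Among the other acyl-CoA hydrolases and acyltransferases, 9 of 16 listed genes were measured, and 1 was called higher and 0 lower at 550 mg/kg. Acot9, a mitochondrial thioesterase, averaged 7.33 at 550 mg/kg and 6.96 in vehicle (0.37 ± 0.08 SE; adjusted p = 0.025). The median change of the list was 0.09, against 0.002 for all probe sets, of which 0.354% were called higher and 0.145% lower. Acot5 and Acot6, next to Acot3 on chromosome 6, were not among the 9 measured. The lists of this and the next paragraphs were drawn up with earlier results of these data known, and each is described by counts, medians or summed levels, with no list test.

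On the supply side, 2 of 18 measured acyl-CoA synthetases rose and 0 fell, with a median change of 0.09. Of all probe sets 0.354% were called higher and 0.145% lower. Acsm5, a medium-chain synthetase, was higher by 0.98 ± 0.22 (SE; adjusted p = 0.03), and Slc27a2, the very-long-chain synthetase FATP2, by 0.20 ± 0.04 (adjusted p = 0.007). Of 16 genes of acyl-CoA binding and coenzyme A turnover 0 were called by limma and 1 had an unadjusted p under 0.05, with a median change of 0.05. That gene was Vnn1, which averaged 10.23 at 550 mg/kg and 9.96 in vehicle (0.27 ± 0.12 SE; adjusted p = 0.50). Of 7 genes of the carnitine shuttle 0 were called and 1 had an unadjusted p under 0.05, with a median of 0.09. That gene was Cpt1a, the gatekeeper of fatty acid entry into mitochondria, at 10.64 at 550 mg/kg and 10.95 in vehicle (−0.31 ± 0.11 SE; adjusted p = 0.33).

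On the side of use, 2 of 15 measured genes of peroxisomal oxidation rose and 0 fell, with a median change of 0.12. The shares over all probe sets were 0.354% called higher and 0.145% lower. Ehhadh averaged 11.86 at 550 mg/kg and 10.79 in vehicle, higher by 1.07 ± 0.11 (SE; adjusted p = 4.2e-07), and Decr2, a dienoyl-CoA reductase, was higher by 0.35 ± 0.08 (adjusted p = 0.031). Ehhadh and the main probe set of Acot2 had the same fold, 2.09. Of 16 genes of mitochondrial oxidation 2 rose, Eci1 by 0.96 ± 0.12 (adjusted p = 1.7e-05) and Decr1 by 0.33 ± 0.06 (adjusted p = 0.0041), and 0 fell. All 16 measured changes of this list were positive, with a median of 0.16, against 0.002 for all probe sets. The share of positive changes over all probe sets was not counted. The probe set of Eci1 is of the type that can share probes with similar transcripts. Of 16 measured PPARalpha markers 2 rose (Ehhadh, and Cyp4a1 by 0.85 ± 0.14, adjusted p = 8e-04) and 0 fell, with a median of 0.09. Of these 16 changes 10 were positive. The largest in absolute size was a lower one, Fgf21 at −1.13 ± 0.50 (SE; adjusted p = 0.49 in limma), which was not called. Cpt1a and Plin2 were also lower without a call. At 55 mg/kg 0 genes of any of these lists were called.

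**Figure D5:**
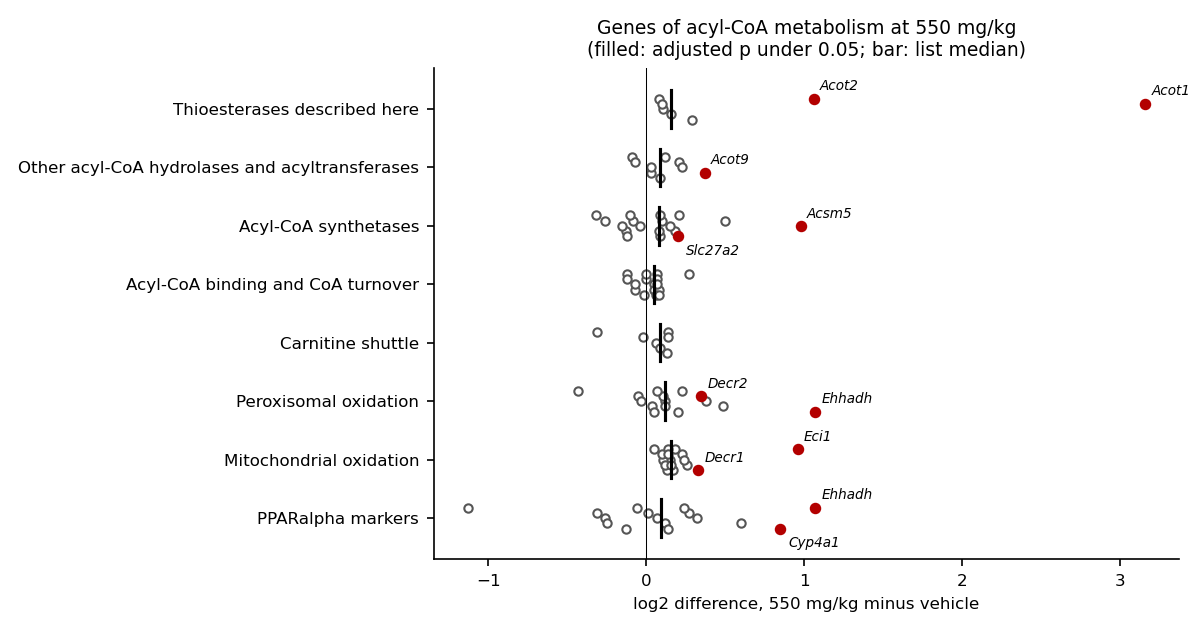
Log2 difference between 550 mg/kg and vehicle (horizontal axis) of each measured gene in the thioesterase family and in 7 lists of acyl-CoA metabolism (rows); filled points have an adjusted p under 0.05, and bars are list medians. Acot1 at 3.16 stands farthest to the right, and the list medians lie between 0.05 and 0.16.

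Marker genes of cell types were also compared at this dose. Of 9 measured hepatocyte markers 1 fell at 550 mg/kg, Apoa1, the apolipoprotein of high-density lipoprotein (−0.51 ± 0.06 SE; adjusted p = 7.3e-06), and 0 rose, with a median change of −0.05. Of these 9 changes 3 were positive, and those of Alb, Asgr1 and Cps1 rounded to 0. Over all probe sets 0.145% were called lower. The summed linear RMA value of the 9 hepatocyte markers ran from 103000 to 108000 at 550 mg/kg and from 109000 to 112000 in vehicle. That sum includes Apoa1 (mean 12.92 at 550 mg/kg and 13.43 in vehicle) and was not taken without it. Of 3 measured red blood cell markers 0 were called by limma, with a median change of −0.46 and summed values of 3040 to 4610 at 550 mg/kg and 4170 to 5970 in vehicle. The 6 adipocyte markers summed to 660 to 772 at 550 mg/kg and to 681 to 788 in vehicle, with 0 called and a median change of 0.01, and 7 Kupffer cell and macrophage markers had a median change of −0.22, with 0 called. Endothelial, stellate, cholangiocyte and lymphocyte markers had median changes of −0.08, −0.08, −0.07 and −0.09, with 0 called in each. Changes were positive in 0 of 7 Kupffer cell and macrophage, 0 of 5 endothelial and 0 of 3 red blood cell markers. They were positive in 1 of 6 stellate, 1 of 4 cholangiocyte, 1 of 5 lymphocyte and 3 of 6 adipocyte markers. That share over all probe sets was not counted. The part of these shifts in the values of Acot1 and Acot2 was not tested, and in whole liver fewer cells of a type and less RNA per cell cannot be told apart. The 3' minus 5' signal of the RNA quality controls differed between 550 mg/kg and vehicle by −0.05 for beta-actin, −0.01 for GAPDH and −0.04 for hexokinase, and each 95% interval included 0.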

How the data were processed

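Liver RNA was hybridised to 35 (vehicle 5, each of 5 doses 6) single-colour Affymetrix arrays after 3' amplification, with an RNA integrity number of at least 7.0, per the labels' protocols. The authors deposited log2 values per probe set made with RMA and affy, per the submitters' processing notes; their versions and the chip definition were not given in the sources used here. RMA gives the arrays 1 common distribution, which hides a shift of most genes, and levels off near background, which shrinks folds of dim genes such as Acot1. The number of arrays limits the precision.

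Of 31099 probe sets, 57 controls were left out. The platform annotation gave 20826 probe sets 1 symbol and 436 several, and 9780 were not listed; no gene was named from several symbols. Symbols were matched by Entrez identifier to RefSeq's GRCr8 table (20758 probe sets), which also gave gene order.

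The design text names R/maanova at a false discovery rate under 5%; here limma 3.58.1 in R 4.3.3 fitted a mean for each group to the 35 arrays, with two-sided tests adjusted by Benjamini-Hochberg over 31042 probe sets. Each of 5 doses was set against vehicle and 550 against 55 mg/kg, and a line was fitted to dose rank (0 to 5). The fit was tested on simulated data in which each probe set had the same SD in every group. That setting does not cover the unequal spread of Acot1. Correlations used scipy 1.17.1, with permutation within groups. They were computed for 11 partner genes. A correlation within the 6 arrays at 550 mg/kg had been planned and is not given, since they fell into separate sets of Acot1 values. Figures used matplotlib 3.10.9. Members, lists and tests were chosen with earlier results of these data known. Named genes were the members, the partners, the 8 genes most like Acot1 over 35 arrays and the 6 with group means subtracted, and for each list up to 3 called members, or else the 1 with the smallest p. Same-numbered arrays did not deviate together (correlations −0.31 to 0.18), so the numbers do not pair them.

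Alternatives tried were a filter on the 40% dimmest probe sets, array medians, cyclic loess, trend and robust or no variance moderation, the compared groups alone, array weights, a replicate block, single arrays left out and the mean of a gene's probe sets.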

Additional observations from a re-analysis of the deposited data

Results flagged for a closer look

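In 4 of 42 group and gene combinations examined, 1 array stood far from the others of its group by Dixon's test at the 95% level, which chance gives in about 1 in 20. Acot2 read 9.31 in vehicle replicate 5, against 8.88 to 8.98 in the other vehicle arrays, and 9.41 in 55 mg/kg replicate 6, against 8.91 to 9.09. These arrays also had the highest Acot1 of their groups, 4.01 at 55 mg/kg and 3.53 in vehicle. Acot7 read 8.17 in vehicle replicate 2, against 8.38 to 8.47, and Acot8 read 8.28 in vehicle replicate 1, against 8.11 to 8.16. Without vehicle replicate 1 the difference of Acot8 at 550 mg/kg was 0.14 and was not called either (adjusted p = 0.50). No cause of these values was tested.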

How the results depend on the processing

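No alternative turned a called direction round (0 of 1611 values). Counts and results that were never called are among these values and could not be labelled as turned. Signs of some uncalled results did change. Acot2 at 550 mg/kg against vehicle kept its call throughout (0.99 to 1.14), and Acot1 kept it without any 1 array (2.78 to 3.53). With the compared groups alone, 1 of 7 members was called in place of 2 against vehicle (Acot1 3.16, adjusted p = 0.083) and against 55 mg/kg (Acot1 3.00, adjusted p = 0.055), and 41 and 76 probe sets in place of 155 and 213. Leaving out the 40% dimmest probe sets removes Acot1 itself, so 1 member was called in both. Array weights called 327 probe sets against 55 mg/kg. For the slope, 53 probe sets became 112 without dim probe sets, 93 with loess, 93 with trend and robust settings and 115 with array weights; members called became 2 with array weights (Acot1 0.49, adjusted p = 0.038), 0 without moderation (Acot2 0.16, adjusted p = 0.052) and 0 with the replicate block (Acot2 0.15, adjusted p = 0.085). The replicate block changed no other call of a member. At 5.50 mg/kg loess called 1 probe set in place of 0. Leaving out single arrays gave 0 to 1 probe sets at 0.05, 0.55 and 5.50 mg/kg (1 without vehicle replicate 4, and at 5.50 mg/kg also without vehicle replicate 5). At 550 mg/kg it gave 77 to 142 against vehicle (82, 77 and 88 without vehicle replicates 1 and 3 and 550 mg/kg replicate 2) and 123 to 197 against 55 mg/kg (123 and 137 without 55 mg/kg replicates 1 and 4). For the slope it gave 20 to 104 probe sets (104 without vehicle replicate 2; 21, 20, 30, 28 and 20 without 550 mg/kg replicates 1, 2, 3, 4 and 6), 0 to 1 members and 0.13 to 0.17 for Acot2 (adjusted p 0.022 to 0.10). Over all 35 arrays with group means subtracted, r between Acot1 and Acot3 was 0.36 (adjusted permutation p = 0.15). The correlations within 550 mg/kg were not run. Where no construction is named, the cause was not tested. The dim level of Acot1 below 550 mg/kg limits its fold, and its spread at 550 mg/kg limits the precision of its mean.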
